A study of Solanum tuberosum with 72 samples.

Results

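Leaves of potato seedlings held in the cold for 27 h were compared directly with leaves of seedlings held in salt for 27 h. The comparison rests on 6 of the 72 arrays of the series, 3 labelled leaf cold at 27 h and 3 labelled leaf salt at 27 h, chosen by their titles alone. The plants were of variety Gilroy, raised from true seed for 5 weeks on hydroponic medium at 25 °C with 16 h of light and 8 h of dark. Cold plants stood in medium at 4 °C with their boxes on ice. Salt plants stood in medium with NaCl, at 150 mM by one label and at 100 mM by another, a conflict that was not settled here. The no-stress plants of the same time, used to give each stress its own value, had received fresh medium only. A sample pooled leaves of 6 plants from 2 boxes, and the labels describe 3 independent runs of the experiment. Per the labels the leaf samples were the aerial tissue, so whole shoots stand behind the word leaf.

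On each spotted complementary DNA array the query sample carried the dye Cy3 and the reference carried Cy5. That reference was a pool of control leaves of the same time, from 6 boxes. The measurement is a log2 ratio per probe, where a step of 1 is a doubling. Both stresses were read against the same kind of reference with the same dye, so reference, dye and no-stress arrays all cancel when salt is subtracted from cold. Positive differences are described as higher in cold than in salt. That reading takes the ratio as query over reference, which is likely from the naming of the channels but is not written in the data, and the titles name the control first. If the ratio ran the other way, every higher would become a lower. Ratios to a reference of the same tissue carry no transcript level, so the leaf label could not be checked by the level of leaf markers. They also cannot tell fewer cells of a type from less RNA per cell.

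Cold and salt pose an overlapping problem to a leaf. Chilling slows enzymes and membranes and leaves absorbed light in excess, while salt at the root withholds water and brings ions into the shoot. Both are relayed by calcium-dependent protein kinases, mitogen-activated protein (MAP) kinase cascades, reactive oxygen species and the hormone abscisic acid, and both reset carbon metabolism. Cold storage of potato tubers is known for turning starch into sugar, and salt for an osmotic and then an ionic phase.

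The 6 arrays gave values for 9035 to 10188 probes. Log2 ratios of 1 or more in size made up 6.85 to 7.23% of the probes on the cold arrays, 4.61 to 5.54% on the salt arrays and 0.163 to 1.004% on the no-stress arrays. The scaled median absolute deviation of the log2 ratios was 0.397 to 0.430 in cold, 0.293 to 0.364 in salt and 0.141 to 0.268 without stress, so the cold arrays were spread more widely than the salt arrays as a whole. Cold arrays correlated with each other at r of 0.653 to 0.856 over probes and salt arrays at 0.735 to 0.824. Replicate 3 stood apart in both groups. Salt replicate 3's correlation with the cold arrays was 0.726, 0.766 and 0.799, against 0.738 and 0.735 with the other salt arrays, while salt replicates 1 and 2 correlated with the cold arrays at 0.586 to 0.643. Cold replicate 3 correlated with salt replicate 3 at 0.799, against 0.653 and 0.784 with cold replicates 1 and 2. Its correlation with no-stress replicate 3 was 0.482, where cold replicates 1 and 2 gave 0.042 and 0.180. All of these arrays share a reference, so the correlations describe the arrays and carry no p. Counts are therefore also given without either array.

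Of 9638 probes tested, 295 differed between cold and salt (limma's moderated test, Benjamini-Hochberg adjusted p under 0.05), which is 3.06% of all tested probes. In 158 the value was higher in cold (1.64%) and in 137 it was lower (1.42%). The median difference was 0.79 on the log2 scale in the higher set, within a range of 0.38 to 1.88, and -0.71 in the lower set, where sizes ran from 0.35 to 2.86. Differences of at least 1 in size were reached by 46 of the higher and 29 of the lower probes. Before adjustment, 1622 probes had p under 0.05. Without salt replicate 3 the count was 514, with 268 higher and 246 lower, and without cold replicate 3 it was 354, with 193 higher and 161 lower. Without salt replicates 1 or 2 it was 39 or 75, and without cold replicates 1 or 2 it was 134 or 57. With only the 6 arrays in the fit limma called 0 probes (1430 at an unadjusted p under 0.05), so the calls rest on the spread estimated over all 36 leaf arrays. The main fit holds no block for the replicate number. With that block in the leaf fit 432 probes were called, 238 higher and 194 lower.

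The groups can also be set beside each other without a model. Among the 8470 probes measured on all 6 arrays, the lowest cold value lay above the highest salt value in 846 (9.99%) and the highest cold value lay below the lowest salt value in 878 (10.4%). Among the called probes with all 6 values, the groups did not overlap in 145 of 152 higher and in 127 of 135 lower probes, a property that goes with being called. In 230 of these 287 probes salt replicate 3 was the salt array nearest to the cold mean, against 28 for replicate 1 and 29 for replicate 2. Cold replicate 3 was the cold array nearest to the salt mean in 166, against 90 and 31 for replicates 1 and 2.

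Each stress was then set beside the no-stress arrays. In the probes higher in cold, cold minus no stress had a median of 0.83, with the middle of the set between 0.53 and 1.28, while salt minus no stress had a median of 0.10, from -0.17 to 0.30. In the probes lower in cold, cold minus no stress had a median of -0.35, from -0.60 to -0.14, and salt minus no stress had one of 0.39, from 0.15 to 0.86. The probes were chosen by their difference, and both comparisons use the same no-stress arrays, so these medians are a description. Over all probes, 2077 of 9634 were called in cold against no stress (21.6%) and 1175 of 9906 in salt against no stress (11.9%).

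**Figure D1:**
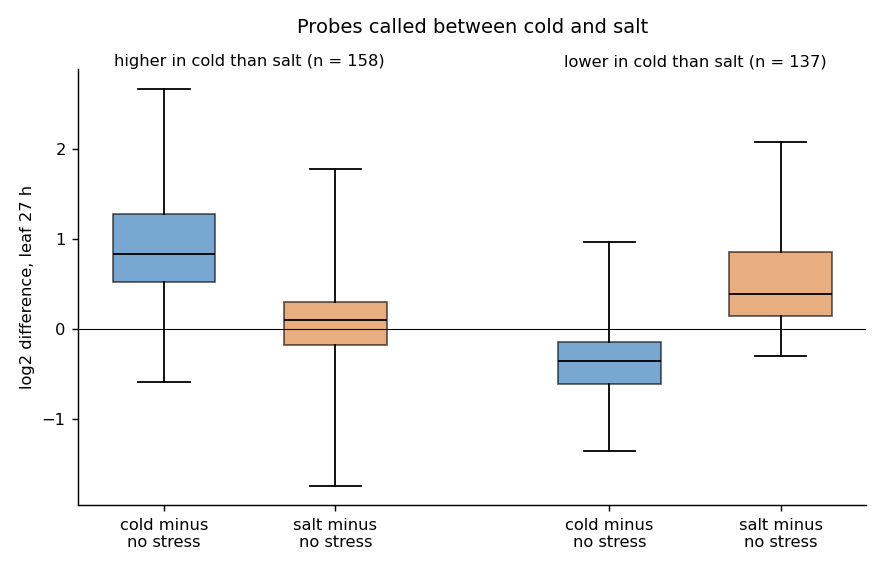
Box plots of the log2 difference of each stress from no stress at 27 h in leaf, for the 158 probes called higher and the 137 called lower in cold than in salt (box: quartiles, line: median, whiskers: full range). In the higher set the cold median is 0.83 and the salt median 0.10, and in the lower set they are -0.35 and 0.39.

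Most of these probes cannot be named. Of the 158 higher probes, 20 carried a gene name, from 18 genes, 6 had a locus number and 132 had no annotation. Of the 137 lower probes, 5 carried a gene name, from 4 genes, 3 had a locus number, 1 had several symbols and 128 had no annotation. The named genes therefore stand for a small share of what differed. Each of the 21 called genes described below is given by 1 called probe. In 17 of them all 6 arrays had a value and the groups did not overlap. Over all probes with 6 values the shares without overlap were 9.99% with cold above salt and 10.4% with cold below. Among the called ones it was 145 of 152 higher and 127 of 135 lower probes. Lack of overlap goes with being called and adds no support for the named genes.

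**Figure D2:**
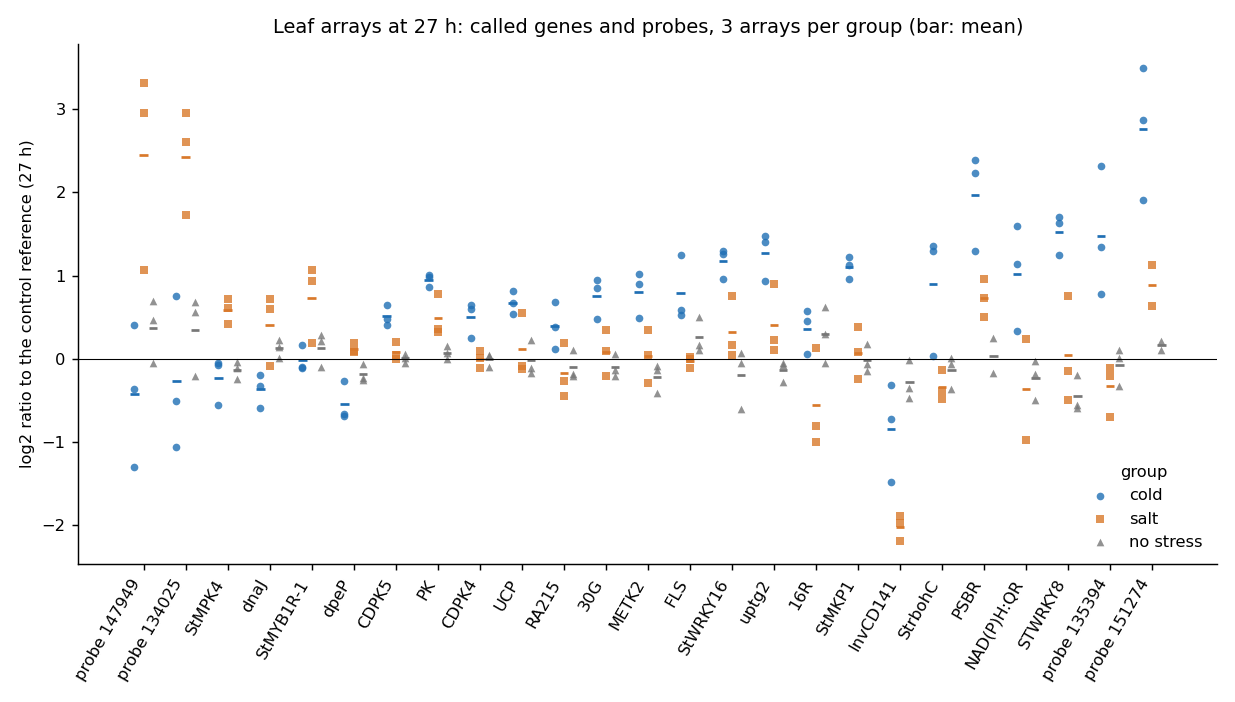
Log2 ratio to the control reference at 27 h on each leaf array (points) and the mean of each group (short bars), for the 21 named genes and 4 unannotated probes called between cold (circles) and salt (squares), with no stress (triangles) beside them. From probe 147949 to dpeP the salt values lie above the cold values, and from CDPK5 rightwards the cold means lie above the salt means.

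Of 16 tested probes of protein kinases and phosphatases, from 13 genes, 5 were higher in cold, 1 was lower and 10 did not pass. Over all tested probes the shares were 1.64% higher and 1.42% lower. The 5 higher probes came from 4 genes, with both probes of StMKP1 among them. The list's median difference was 0.42 against 0.00 over all tested probes. StMKP1 is a MAP kinase phosphatase, an enzyme that switches MAP kinases off. Its ratios were 1.23, 1.13 and 0.96 on the cold arrays and 0.08, -0.24 and 0.38 on the salt arrays. The 3 cold values lay above all 3 salt values, and the no-stress values, at -0.15, -0.06 and 0.18, lay in the range of the salt values. The difference was 1.03 (SE 0.24, limma adjusted p 0.0166), and the other StMKP1 probe gave 1.13 and was called as well. StMKP1 rose in cold against no stress, by 1.12 (adjusted p 0.00142), and was 0.08 from no stress in salt (adjusted p 0.891).

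StMPK4, a MAP kinase, went the other way. It was at -0.56, -0.05 and -0.07 on the cold arrays and at 0.61, 0.42 and 0.72 on the salt arrays. No cold value reached a salt value, and salt replicate 3 was here the highest of the salt arrays. The difference was -0.81 (SE 0.15, limma adjusted p 0.00358), with salt 0.71 above no stress (adjusted p 0.00206) and cold -0.10 from it (adjusted p 0.718). The other StMPK4 probe gave -0.74 and did not pass (adjusted p 0.0644). Leaving out any 1 of the 6 arrays did not end the call. The other MAP kinases of the list did not pass, with StMPK1 at -0.06, StMPK2 at 0.41, StMPK3 at 0.02 and StWIPK, a wound-induced MAP kinase, at 0.99 (adjusted p 0.0697).

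Calcium-dependent protein kinases (CDPKs) bind calcium and phosphorylate targets directly. Of 5 tested CDPK probes, 3 were called, all higher in cold, beside 1.64% called higher over all tested probes. CDPK4 was at 0.65, 0.60 and 0.25 in cold and at -0.11, 0.09 and 0.01 in salt. CDPK5 was at 0.65, 0.41 and 0.48 in cold and at 0.00, 0.05 and 0.21 in salt. For both genes every cold array was above every salt array. The differences were 0.50 for CDPK4 (SE 0.11, limma adjusted p 0.0108) and 0.43 for CDPK5 (SE 0.10, adjusted p 0.0179), while the other CDPK5 probe gave 0.62 without passing. CDPK2 also passed, at 0.44 (limma adjusted p 0.0162), and is named after its value was seen because it completes the count of the list. Its ratios were -0.04, 0.07 and -0.04 in cold and -0.51, -0.46 and -0.37 in salt, groups that did not overlap. CDPK1, at 0.27, did not pass, and neither did the phosphatase StP2C, at 1.34 (adjusted p 0.0864).

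Among 12 probes of 9 transcription regulators, 3 were higher in cold, 1 was lower and 8 did not pass, with a median of 0.16, beside 1.64% higher and 1.42% lower over all tested probes. Both probes of STWRKY8 are among the 3. WRKY factors are plant regulators known from defence and stress. STWRKY8 was at 1.70, 1.63 and 1.25 in cold, against -0.49, -0.14 and 0.76 in salt and -0.20, -0.59 and -0.56 without stress. Cold and salt did not overlap, though salt replicate 3 lay well above the other salt arrays. The difference was 1.49 (SE 0.40, limma adjusted p 0.0389) and it was 1.85 without salt replicate 3. The second STWRKY8 probe gave 1.36 and was called too. StWRKY16 was at 0.96, 1.30 and 1.26 in cold and at 0.16, 0.05 and 0.76 in salt, so its groups did not overlap either. Its difference was 0.85 (SE 0.24, limma adjusted p 0.0454), and it rose by 1.37 in cold against no stress (adjusted p 0.000165).

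The regulator lower in cold was StMYB1R-1, a MYB-like factor known from drought responses of potato. Its ratios were 0.16, -0.10 and -0.11 in cold and 1.06, 0.93 and 0.19 in salt. Salt replicates 1 and 2 were high, salt replicate 3 lay just above the highest cold value, and the groups did not overlap. The difference was -0.74 (SE 0.20, limma adjusted p 0.0337). Against no stress, salt was 0.60 higher (adjusted p 0.0452) and cold was at -0.15 (adjusted p 0.656). NAC2, dof1, CO, BEL5, MADS16 and WRKY1 did not pass, with gene medians between -0.30 and 0.57.

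Among genes of redox reactions, StrbohC encodes a respiratory burst oxidase homolog, a plasma membrane NADPH oxidase that makes superoxide. It was at 1.29, 1.36 and 0.04 in cold and at -0.49, -0.39 and -0.13 in salt. The groups did not overlap, although cold replicate 3 was close to the salt arrays. The difference was 1.23 (SE 0.32, limma adjusted p 0.0320), and cold was 1.03 above no stress (adjusted p 0.0213). NAD(P)H:QR, a quinone reductase that keeps quinones out of redox cycling, was at 0.33, 1.14 and 1.601 in cold. It was at -0.98 and 0.24 in salt replicates 1 and 3 and had no value in replicate 2. The lowest cold value was close above the highest salt value, and the difference of 1.39 (SE 0.35, limma adjusted p 0.0270) rests on 5 arrays. The 7 probes of dehydroascorbate reductases, a catalase and a glutaredoxin gave no call, beside 3.06% called over all tested probes. Their differences ran from -0.48 to 0.09, with a median of -0.15.

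Calls among genes of carbon metabolism were few and went in both directions. Of 5 tested probes of sucrose metabolism and transport, 1 was called, beside 3.06% over all tested probes. InvCD141 is an apoplastic invertase, which splits sucrose outside the cell. Its ratios were -1.48, -0.31 and -0.73 in cold and -2.18, -1.97 and -1.89 in salt, against -0.01, -0.35 and -0.47 without stress. All salt values lay below all cold values, and cold replicates 2 and 3 lay near the no-stress arrays. The difference was 1.18 (SE 0.33, limma adjusted p 0.0471) and ended as a call without salt replicate 3, at 1.24 (adjusted p 0.0503). InvCD141 fell in salt against no stress, at -1.74 (adjusted p 0.000653), while cold was at -0.56 (adjusted p 0.247). The other apoplastic invertase measured, InvCD111, was at 0.10 and did not pass, and the 3 probes of sucrose synthase sus4 lay between -0.46 and 0.27 without a call.

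Of 13 probes from 9 starch genes, 0 were higher in cold, 2 were lower and 11 did not pass, with a median of -0.27, beside 1.64% and 1.42% over all tested probes. Both lower probes were of 1 gene, dpeP, the plastidial disproportionating enzyme that rearranges glucan chains when starch is broken down. The described probe was at -0.27, -0.67 and -0.69 in cold and at 0.19, 0.09 and 0.09 in salt. No cold array reached a salt array, and the no-stress arrays, from -0.26 to -0.06, lay between the group means. The difference was -0.66 (SE 0.17, limma adjusted p 0.0262), and the second probe gave -0.54. Neither stress passed against no stress, with cold at -0.36 and salt at 0.31. Both probes of the starch synthase SS2 were at -0.65 and just missed the threshold (lowest adjusted p 0.0537). GBSS, SBE1, R1, AMYA1, STP-1, agpS2 and agpS3 did not pass, with gene medians between -0.38 and 0.42.

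In glycolysis, PK, a cytosolic pyruvate kinase, was at 1.01, 0.86 and 0.99 in cold and at 0.36, 0.32 and 0.78 in salt. Every cold value was above every salt value, and both groups were above the no-stress values, which ran from -0.01 to 0.15. The difference was 0.47 (SE 0.13, limma adjusted p 0.0454), and both stresses passed against no stress, cold at 0.88 (adjusted p 2.51e-05) and salt at 0.41 (adjusted p 0.0349). The other 8 probes of the list were all of GAPDH, glyceraldehyde-3-phosphate dehydrogenase. They lay between 0.09 and 0.65 and none was called, beside 3.06% of all tested probes. The 8 are clones of 1 gene name and so not 8 separate genes.

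UCP, a mitochondrial uncoupling protein that lets protons back without making ATP, was at 0.54, 0.81 and 0.67 in cold and at -0.13, -0.08 and 0.55 in salt. The groups overlapped by a narrow margin, since salt replicate 3 reached the lowest cold value. The difference was 0.56 (SE 0.16, limma adjusted p 0.0440) and the other probe gave 0.38 without passing. It was the only call among 15 probes of mitochondrial proteins, beside 3.06% called over all tested probes. The median of the 15 was -0.01. AOX, the alternative oxidase, was at -0.12, both Aconitase probes were between 0.52 and 0.61 (lowest adjusted p 0.0698), and FDH, formate dehydrogenase, was at a median of -0.03.

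METK2 makes S-adenosylmethionine, the methyl donor that also feeds polyamines and ethylene. It was at 1.02, 0.90 and 0.50 in cold and at -0.29, 0.04 and 0.35 in salt. The groups did not overlap, and the difference was 0.77 (SE 0.20, limma adjusted p 0.0297). Between METK2 values of the same replicate number it was 1.308, 0.856 and 0.151, so it was small in replicate 3. Its second probe gave 0.41 and did not pass. The list of methionine, polyamine and sulfur amino acid enzymes held 25 probes of 7 genes, with 1 call, beside 3.06% over all tested probes. Its median was 0.37. Within it the clones of each gene stayed together, with 8 probes of SAMDC, S-adenosylmethionine decarboxylase, from 0.15 to 0.67, 5 of the methionine synthase MS from 0.34 to 0.56, and 7 of METK1 from -0.43 to -0.15. None of these probes passed, and the values of METK1 and METK2 lay on opposite sides of 0.

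The plastid protein PSBR, a small protein of photosystem II, was at 1.29, 2.23 and 2.39 in cold and at 0.50, 0.73 and 0.96 in salt. The difference was 1.24 (SE 0.30, limma adjusted p 0.0205), with no overlap between the groups. The gene has 5 probes here, and the other 4 ran from -0.37 to 0.99 without a call, so the gene as a whole has no single direction. With PSBR as the only call, beside 3.06% over all tested probes, the 17 photosynthesis and photorespiration probes had a median of -0.14. Their medians against no stress were -0.70 in cold and -0.55 in salt. FBPase, fructose-bisphosphatase of the carbon reduction and sucrose pathways, was at 0.46 and 0.50 in its 2 probes, and psbP, of the oxygen-evolving complex, was at -0.45 and -0.36, none of them called.

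The 14-3-3 proteins bind phosphorylated enzymes and change their activity. 30G was at 0.86, 0.94 and 0.48 in cold and at -0.20, 0.10 and 0.35 in salt, groups that did not overlap, with a difference of 0.68 (SE 0.15, limma adjusted p 0.0121). Between 30G values of the same replicate number it was 1.058, 0.844 and 0.125. 16R was at 0.06, 0.45 and 0.57 in cold and at -0.999, -0.81 and 0.13 in salt. Salt replicate 3 lay inside the cold range while replicates 1 and 2 were far below it. The difference of 0.92 (SE 0.25, limma adjusted p 0.0436) stood beside a fall in salt against no stress, at -0.86 (adjusted p 0.0249), with cold at 0.06. The other 2 probes of 16R were at 0.01 and 0.09. All 8 tested probes of the translation factors eIF5A and of the ribosomal protein RPL27 lay between -0.23 and 0.10. None was called, beside 3.06% of all tested probes.

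The remaining calls were scattered. FLS, flavonol synthase, was at 1.25, 0.52 and 0.59 in cold and at 0.02, -0.01 and -0.11 in salt, and the groups were apart. The difference was 0.82 (SE 0.19, limma adjusted p 0.0181), but the other 3 probes of FLS were between -0.01 and 0.27. uptg2, a UDP-glucose protein transglucosylase, was at 1.47, 1.40 and 0.93 in cold and at 0.11, 0.22 and 0.90 in salt. Salt replicate 3 came within a small margin of cold replicate 3, and the difference was 0.86 (SE 0.23, limma adjusted p 0.0337), with a second probe at 0.83. RA215 was at 0.12, 0.38 and 0.68 in cold and at -0.44, -0.27 and 0.19 in salt. Its groups overlapped, and its difference was 0.57 (SE 0.15, limma adjusted p 0.0270). The co-chaperone dnaJ was lower in cold, at -0.32, -0.59 and -0.19 against 0.60, 0.71 and -0.09 in salt. Its difference was -0.77 (SE 0.19, limma adjusted p 0.0229), and the other 3 dnaJ probes were between -0.32 and -0.04. Between values of the described dnaJ probe with the same replicate number it was -0.915, -1.301 and -0.103.

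The 4 genes chosen because both stresses changed them did not pass between cold and salt in the fit without a block. ChtA1, a chitinase, was at 4.42, 4.24 and 4.47 in cold and at 3.78, 2.80 and 3.62 in salt. Every cold value was above every salt value, but the difference of 0.97 had a 95% interval from 0.005 to 1.94 (limma adjusted p 0.293). CCoAOMT, of lignin precursor synthesis, was at 2.13, 2.30 and 2.24 in cold and at 1.11, 1.04 and 1.67 in salt, again without overlap. Its difference was 0.95, with an interval from 0.34 to 1.57 (adjusted p 0.0780). It passed with the replicate number as a block, at 0.95 (adjusted p 0.0459), and without salt replicate 3, at 1.15 (adjusted p 0.0387). RSI5 was at 3.23, 3.26 and 2.71 in cold and at 2.84, 2.29 and 2.30 in salt, with a difference of 0.59 and an interval from -0.07 to 1.26. STUGE45, a UDP-glucose epimerase, was at 2.57, 2.47 and 2.18 in cold and at 2.19, 2.42 and 2.04 in salt. Its groups overlapped, and its difference of 0.19 had an interval from -0.40 to 0.79, which leaves differences of up to about that size in either direction undetected.

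With 3.06% of all tested probes called, few calls or none would be usual in small lists, and other lists gave none in either direction. They were 25 probes of defence proteins, proteinase inhibitors and oxylipin enzymes (from -0.90 to 0.97, median 0.15), 9 of membrane pumps, channels and carriers (-0.25 to 0.59), 7 of cell wall and UDP-sugar genes (-0.02 to 0.59) and 3 of hormone genes (-0.001 to 0.40). HPL, hydroperoxide lyase of the oxylipin pathway, was at -0.90 and -0.88 in its 2 probes (lowest adjusted p 0.159). The proton pump PHA2 ran from -0.05 to 0.59 over 4 probes, and the aquaporin relative MIP2 was at -0.25. Among chaperones, cyclophilins and dehydration proteins the call of dnaJ was the only 1 of 15, and the dehydration gene Lea was at 0.63 (adjusted p 0.151). The phenylpropanoid and alkaloid list held 10 probes with the call of FLS alone, and TRI, tropinone reductase, was at -0.61 (adjusted p 0.241).

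**Figure D3:**
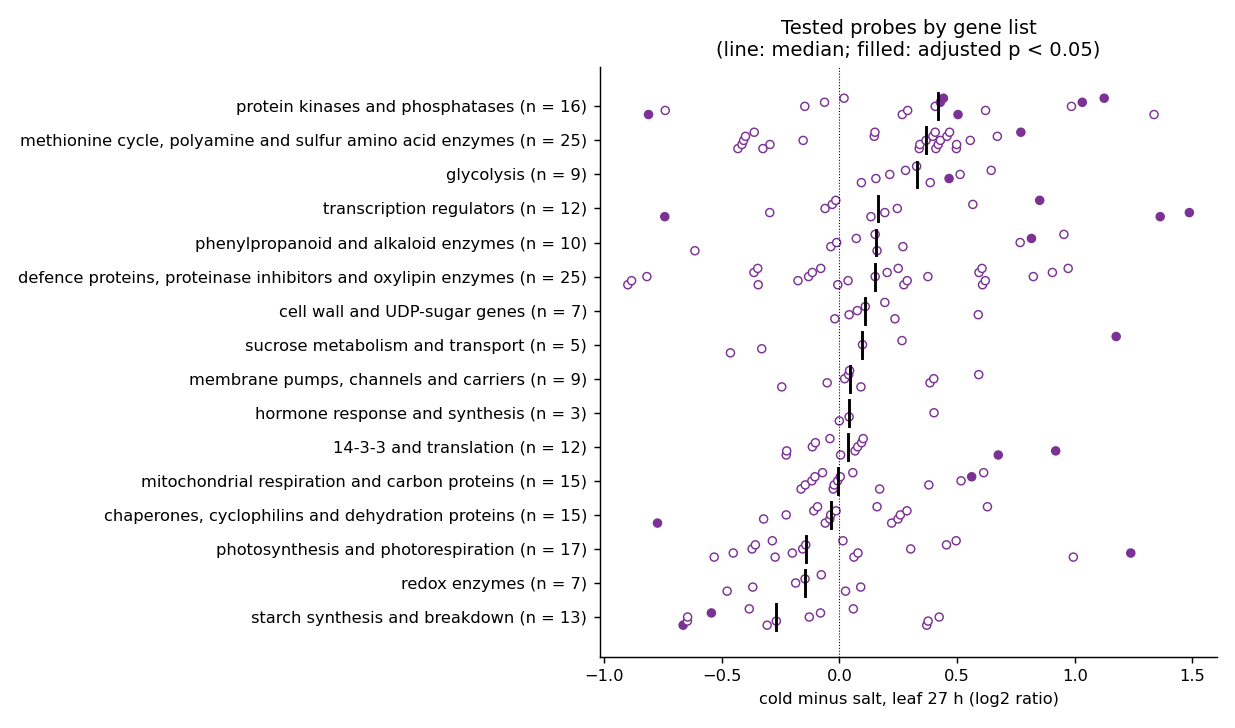
Cold minus salt at 27 h in leaf (log2 ratio) for every tested probe of 16 gene lists, with filled points for adjusted p under 0.05 and a line at each list's median. Kinases and phosphatases have the highest median, 0.42, with 6 filled points, and starch genes the lowest, -0.27, with 2.

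The differences farthest from 0 came from probes without annotation, named here by spot number. Probe 147949 was at -0.36, -1.30 and 0.41 in cold and at 2.95, 3.31 and 1.06 in salt. The groups were far apart except for salt replicate 3, and the difference was -2.86 (SE 0.58, limma adjusted p 0.00672). Probe 134025 was at -0.50, -1.06 and 0.76 in cold and at 2.603, 2.96 and 1.73 in salt, a difference of -2.70 (SE 0.48, limma adjusted p 0.00254). For both probes salt was 2.07 to 2.08 above no stress and cold did not pass against it. Probe 135394 was at 0.78, 2.32 and 1.34 in cold and at -0.20, -0.69 and -0.10 in salt, without overlap, and its difference was 1.81 (SE 0.35, limma adjusted p 0.00422). Probe 151274 was at 3.50, 2.87 and 1.91 in cold and at 0.63 and 1.13 in salt replicates 1 and 3, with no value in replicate 2, and its difference was 1.88 (SE 0.51, limma adjusted p 0.0458).

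The same contrast was made in leaf at 3 h and 9 h, on other arrays with their own references, to see what of the difference was there earlier. At 3 h, 943 of 9410 probes were called (10%), 574 higher in cold (6.1%) and 369 lower (3.92%). At 9 h, 741 of 9558 were called (7.75%), 484 higher (5.06%) and 257 lower (2.69%). The 3 h count was 413 without cold replicate 1 and 579 without salt replicate 2. The 9 h count was 338 without cold replicate 2 and 435, 430 and 481 without salt replicates 1, 2 and 3. Over all tested probes, 50% of the differences were positive at 27 h, 50.3% at 3 h and 49.6% at 9 h.

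Most of the 27 h differences had the same sign at 3 h. The counts below stand beside 6.1% of all tested probes called higher and 3.92% called lower at 3 h. At 9 h it was 5.06% higher and 2.69% lower. Of the 158 higher probes, 157 were tested at 3 h, 148 were positive there and 81 were called higher, with 0 called lower. These 81 are 51.3% of the 27 h list and 14.1% of the 3 h list. Of the 137 lower probes, 129 of 137 were negative at 3 h and 70 were called lower, with 0 called higher, which is 51.1% of the 27 h list and 19.0% of the 3 h list. At 9 h the higher probes were again mostly positive, 142 of 154, and 65 were called (41.1% of the 27 h list and 13.4% of the 9 h list) with 1 called the opposite way. Of the lower probes, 88 of 133 were negative at 9 h, 20 were called lower (14.6% of the 27 h list and 7.78% of the 9 h list) and 2 were called higher. Their median difference was -0.12 at 9 h, against -0.51 at 3 h. A large difference at 27 h did not always keep its sign at 9 h. Probe 147949 was at -2.53 at 3 h and -1.13 at 9 h, and probe 134025 was at -2.23 and 0.47. Both passed at 3 h (limma adjusted p 0.00488 and 0.00704) and neither passed at 9 h (adjusted p 0.250 and 0.609).

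The size of the difference was tested between 27 h and 3 h directly. There 2 of 9224 probes were called (0.0217%), both more positive at 27 h, and 728 had an unadjusted p under 0.05. The count was 25 without cold 3 h replicate 3, 9 without cold 27 h replicate 1, 5 without cold 3 h replicate 2 or salt 3 h replicate 1, and between 1 and 3 without any other array of the 12. None of the 21 named genes was among the calls. Of these genes, 19 had the same sign at 3 h and 13 were called the same way there, and 19 had the same sign at 9 h and 7 were called. At 3 h, 6.1% of all tested probes were called higher in cold and 3.92% lower. At 9 h these shares were 5.06% and 2.69%. StrbohC was at 1.93 at 3 h (limma adjusted p 0.000235), 0.26 at 9 h (adjusted p 0.674) and 1.23 at 27 h. StMKP1 was likewise at 1.29 at 3 h (limma adjusted p 0.000843) and 0.37 at 9 h (adjusted p 0.372). METK2, 30G, RA215, StWRKY16 and dpeP were called in the same direction at all 3 times, METK2 at 0.68, 1.18 and 0.77 and dpeP at -0.70, -0.84 and -0.66. StMPK4 was at -0.19 at 3 h, where it did not pass (limma adjusted p 0.492), and at -0.53 at 9 h, where it did (adjusted p 0.0302). FLS was at -0.32 at 3 h and 0.01 at 9 h, neither called, and dnaJ was at 0.02 and -0.01.

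Genes changed by both stresses at 27 h differed between them at some earlier times. STUGE45 was at 1.55 at 9 h (limma adjusted p 0.00135) and 0.59 at 3 h (adjusted p 0.210), RSI5 was at 1.26 at 3 h (adjusted p 0.0112) and 1.09 at 9 h (adjusted p 0.0355), and CCoAOMT was at 1.14 at 9 h (adjusted p 0.0185). ChtA1 was at -0.32 at 3 h and 0.21 at 9 h and passed at neither. Whether 9 h differs from 27 h was not tested.

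**Figure D4:**
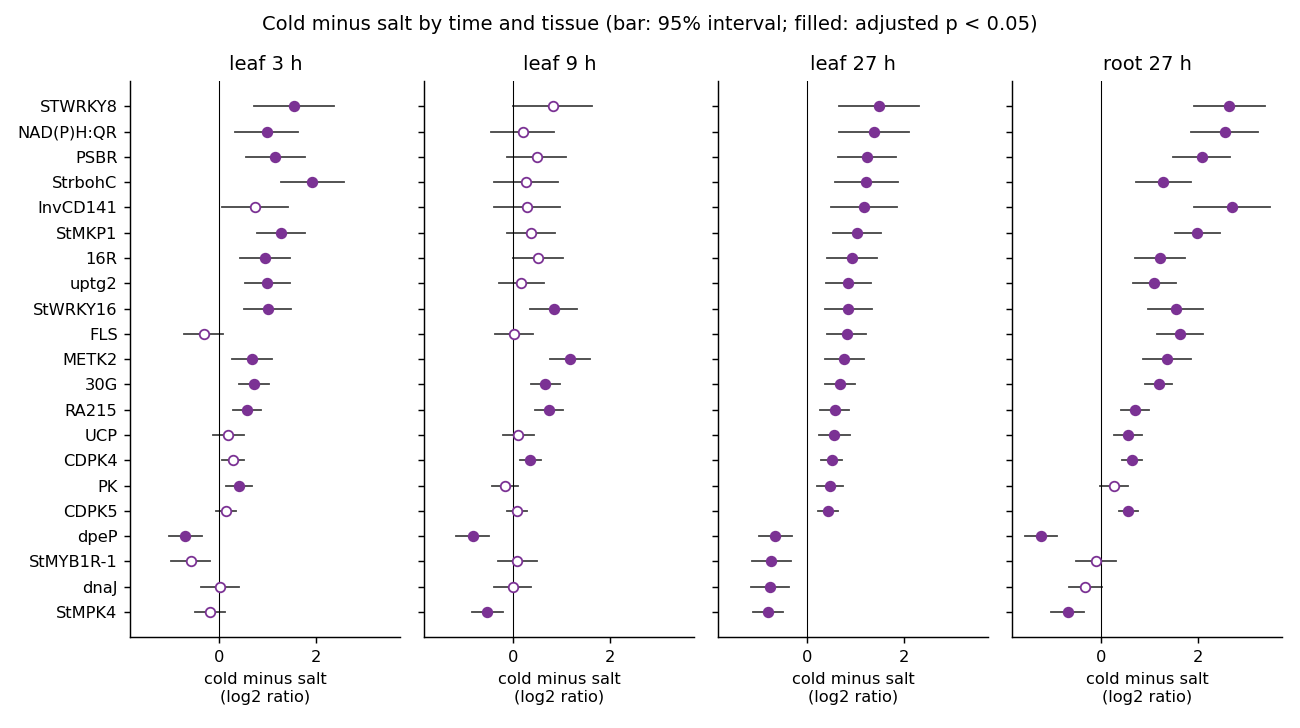
Cold minus salt (log2 ratio, x axis) for the 21 named genes called at 27 h in leaf, in leaf at 3, 9 and 27 h and in root at 27 h, with 95% intervals as bars and filled points for adjusted p under 0.05. At 3 h 13 genes are filled on the same side as at 27 h, at 9 h 7 and in root 18.

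Root arrays of the same time give the contrast in another organ, with another reference. In root, 3710 of 8973 probes were called between cold and salt at 27 h (41.3%), 1861 higher in cold (20.7%) and 1849 lower (20.6%), with 49.4% of all tested differences positive. Of the leaf probes higher in cold, 147 of 153 were positive in root and 125 were called higher, with 1 called lower, which is 79.1% of the leaf list and 6.72% of the root list. Of the leaf probes lower in cold, 125 of 132 were negative in root and 105 were called lower, with 3 called higher, which is 76.6% of the leaf list and 5.68% of the root list. The median root difference was 0.99 over the first set and -1.04 over the second.

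A direct test of leaf against root called 1068 of 8691 probes (12.3%). Among the probes of the leaf lists it called 29 of 153 higher and 22 of 132 lower ones. All 21 named genes had the same sign in root and 18 were called there, the exceptions being dnaJ, StMYB1R-1 and PK. Calls were common in root, at 41.3% of all tested probes, 20.7% higher in cold and 20.6% lower. InvCD141 was at 2.72 in root (limma adjusted p 1.34e-07), STWRKY8 at 2.66 (adjusted p 5.62e-08), NAD(P)H:QR at 2.56 (adjusted p 3.42e-08) and StMKP1 at 1.995 (adjusted p 5.46e-10). StMKP1 was the only 1 of the 21 whose difference between leaf and root passed at the described probe, with -0.96 (limma adjusted p 0.0399). The second StMKP1 probe did not pass that test. The second probe of STWRKY8 did (limma adjusted p 0.0287), as did CDPK2 (adjusted p 0.00168). StMPK4, at -0.70 in root, differed from its leaf value by -0.11 (adjusted p 0.825), and StrbohC, at 1.29 in root, by -0.06 (adjusted p 0.950). StMYB1R-1 was at -0.10 in root, and the test of leaf against root gave -0.64 (adjusted p 0.153).

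Many of the named calls ended when 1 array was left out. Of the 25 named genes and probes, 23 could be tested without salt replicate 3 and 22 kept their call. Without cold replicate 2, the calls that held were those of probe 134025, StMPK4, CDPK5 and FLS, and without salt replicate 1 those of probe 134025, StMPK4 and probe 135394. Without salt replicate 2 they were those of probe 134025, StMPK4, CDPK4 and probe 135394. Without cold replicates 1 and 3, 15 and 10 of the 25 calls ended. With 1 value per gene, 6 ended, among them FLS at 0.29 (limma adjusted p 0.413), 16R at 0.34 (adjusted p 0.415) and PSBR at 0.33 (adjusted p 0.527). When every leaf array was first scaled to the same spread, 28 probes were called, 5 higher and 23 lower in cold, against 158 and 137 on the deposited scale, and among the 25 only probes 147949 and 134025 held. The part of the wider spread of the cold arrays in the higher set was not tested beyond that value. Complementary DNA probes can also bind transcripts of close relatives within families such as CDPK, 14-3-3 and WRKY genes, which was not tested.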

How the data were processed

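The authors deposited 1 table of log2 ratios, with a value per spot and array. How they corrected background, normalized and filtered spots is not stated in the labels or the table. The spot order shows each clone at 2 spots, as all 905 annotated pairs share an accession, and the 2 spots were averaged into 11037 probes. Names came from the platform annotation and, for names alone, the RefSeq table of SolTub_3.0. Of the probes, 798 had 1 symbol, 83 several and 10156 none.

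limma 3.58.1 (R 4.3.3) was fitted over the 36 leaf arrays with 12 group means and no block, and over 72 arrays with 24 group means where root entered. Testing needed values on 2 of 3 arrays of each group. Calls were two-sided at a Benjamini-Hochberg adjusted p under 0.05 over all probes of the contrast. Unless a setting is named, SE, intervals and adjusted p are those of the moderated fit without a block, as planned. They leave out the pairing described next.

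Same-numbered cold and salt arrays at 27 h deviated together (correlations 0.174, 0.209 and 0.139 over 8470 probes). The numbers were therefore taken to pair the samples at 27 h. At 3 h these correlations were 0.298, 0.372 and 0.167. At 9 h they were 0.058, 0.164 and -0.149, which shows no pairing there but cannot exclude one. The block was fitted over all leaf times. The lowest correlation of 2556 pairs of arrays was -0.33, of leaf cold 27 h replicate 3 with replicate 2 of leaf heat 9 h, the only one under -0.3. The labels state the dyes, and the direction was kept.

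Named genes were those with a probe called in the direction of the gene's mean difference: the 12 highest and 12 lowest, up to 3 per direction of each of 16 lists, 4 genes changed by both stresses, and the 2 highest and 2 lowest unannotated probes. The printed probe is the called one with values on the most leaf arrays. Members, lists and tests were chosen with earlier results of these data known. Locus-number genes had no description, and promoter motifs were not searched. Alternatives are listed in the closing section.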

Additional observations from a re-analysis of the deposited data

Results flagged for a closer look

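The cold minus salt difference of StMKP1, the MAP kinase phosphatase, was smaller in leaf than in root at 27 h, by -0.96 on the log2 scale (limma interaction over 72 arrays, adjusted p 0.0399), with 1.03 in leaf and 1.995 in root. The second StMKP1 probe did not pass that test (adjusted p 0.101). Probe 151274, without annotation, was 1.88 in leaf and 5.598 in root, and the test of leaf against root gave -3.72 (adjusted p 0.000101). Its leaf value rests on 2 salt arrays.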

How the results depend on the processing

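The count of 295 probes at 27 h moved to 77 with only the leaf arrays of 27 h in the fit, 0 with only the 6 arrays, 28 with arrays scaled to the same spread, 3232 with array weights and, by settings chosen after seeing the data, 2085 with gene by gene weights and 8 with only the 6 arrays and the replicate block. It stayed within 1.5 times under the replicate block in the leaf fit (432, every named call kept, CCoAOMT gained), all 72 arrays (363), subtracted medians (297), values on all 6 arrays (341), at least 1 array per group (291), 1 value per gene (282) and robust eBayes (293). With the first spot only it was 198. A prior from tested probes only, also added later, gave 301. Leaving out 1 array gave 39 to 514 at 27 h, 338 to 936 at 9 h, 413 to 1076 at 3 h, 1 to 25 for 27 h against 3 h and 761 to 1184 for leaf against root. With only the contrast's arrays the counts were 22 at 9 h, 333 at 3 h and 0 for 27 h against 3 h (607 at an unadjusted p under 0.05). The replicate block gave 8 for 27 h against 3 h. Of the 25 named calls, all 25 ended with only the 6 arrays, 23 with only the leaf arrays of 27 h, 11 with the first spot only, 6 with 1 value per gene and 4 with all 72 arrays (PK, METK2, StWRKY16 and InvCD141). Scaling to the same spread turned STUGE45 to -0.26 and RSI5 to -0.037, neither called. Under the array weights cold 27 h replicate 2 had a weight of 10.9, against 0.588 and 0.415 for replicates 1 and 3. Gene by gene it was 3.77, against 0.669 and 0.455, so the weighted cold mean leans on 1 array. The cause of the moves was not tested, and 3 arrays per group limit the precision.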
